A study of Mus musculus with 8 samples.

Results

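The receptors through which myeloid cells bind IgG, and the proteins that carry their signal, were examined in the mRNA of CD11b+Gr-1hi and CD11b+Gr-1lo cells from lupus-prone sanroque mice. The set is the genes of 4 Fc gamma receptors (Fcgr1, Fcgr2b, Fcgr3 and Fcgr4), of the adaptors Fcer1g and Tyrobp, of the kinase Syk and of the neonatal Fc receptor Fcgrt. These 8 genes were taken by symbol from a table of 54188 genes, and all 8 were among the 17650 genes with enough counts to be tested.

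Both compared factors lie within the mutant: every library came from mice homozygous for the san allele of Roquin on the C57BL/6 background, labelled as female and aged about 20 weeks. No wild-type library was analysed here, so no value below measures an effect of the mutation. Cells were sorted by CD11b and by a high or low level of Gr-1 out of spleen (SP) and bone marrow (BM), with 2 libraries for each of the 4 groups, and the labels class the Gr-1hi cells as the granulocytic and the Gr-1lo cells as the monocytic subset. Libraries 5 and 6 were SP Gr-1hi, 7 and 8 SP Gr-1lo, 9 and 10 BM Gr-1hi, and 11 and 12 BM Gr-1lo. The labels do not say which libraries shared a mouse or whether each came from 1 animal, so the p-values measure the spread between these libraries only.

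Receptors of the Fc gamma family bind the constant part of IgG on immune complexes and opsonised particles. The products of Fcgr1, Fcgr3 and Fcgr4 activate cells through the common gamma chain encoded by Fcer1g, whose ITAM motif is phosphorylated by Src family kinases and then recruits Syk. The product of Fcgr2b carries an inhibitory ITIM motif and restrains that signal, and its loss is a known cause of lupus-like disease in mice. Tyrobp encodes DAP12, an ITAM adaptor of other myeloid receptors that also feeds Syk, and Fcgrt encodes FcRn, which protects IgG from breakdown and pairs with beta-2 microglobulin.

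The members Fcgr2b, Fcgr4, Fcgr3 and Fcer1g lie together on chromosome 1 of GRCm38, Fcgr2b (ENSMUSG00000026656) at chr1:170958617-170976547 on the minus strand, Fcgr4 (ENSMUSG00000059089, chr1:171018920-171029761, plus), Fcgr3 (ENSMUSG00000059498, chr1:171051174-171064935, minus) and Fcer1g (ENSMUSG00000058715, chr1:171229572-171234365, minus). The other members are Fcgr1 (ENSMUSG00000015947, chr3:96282909-96293969, minus), Fcgrt (ENSMUSG00000003420, chr7:45092990-45103851, minus), Tyrobp (ENSMUSG00000030579, chr7:30413760-30417585, plus) and Syk (ENSMUSG00000021457, chr13:52583173-52648792, plus).

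The inhibitory Fcgr2b and the activating Fcgr3 are related in sequence, which bears on whether their reads can be told apart. The longest run of identical bases between their transcripts was 129 bases, coding in both genes and spread over 2 exons of each. It is shown in capitals with 20 coding bases on either side, read along the sense strand of GRCm38 from chr1:170966654-170968101 for Fcgr2b and from chr1:171054147-171057812 for Fcgr3, both on the minus strand.
Fcgr2b: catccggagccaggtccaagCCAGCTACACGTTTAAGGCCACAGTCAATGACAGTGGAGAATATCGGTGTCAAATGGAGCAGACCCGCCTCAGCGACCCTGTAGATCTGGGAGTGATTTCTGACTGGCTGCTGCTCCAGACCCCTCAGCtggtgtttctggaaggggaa
Fcgr3: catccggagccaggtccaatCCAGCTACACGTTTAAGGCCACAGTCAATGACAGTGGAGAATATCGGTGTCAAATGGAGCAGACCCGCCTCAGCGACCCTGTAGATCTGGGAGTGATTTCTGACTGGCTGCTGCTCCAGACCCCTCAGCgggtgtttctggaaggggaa
Reads were 101 bases long and paired. Of the windows of that length in the annotated transcripts, 1.32% of those of Fcgr2b and 2.42% of those of Fcgr3 also occurred in another gene, and for the other 6 members no window did. An exon of Fcgr2b also overlaps Gm38204 on the opposite strand.

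The promoters of the 3 activating receptors are shown because Fcgr1 went against Fcgr3 and Fcgr4 between the subsets. Each runs from 250 bases before to 50 bases after the start annotated by RefSeq on GRCm38.p6, on the strand of the gene. Motifs were searched on both strands, namely the interferon gamma activated site GAS (TTCNNNGAA), the core of the interferon response element ISRE (GAAA, any 2 bases, GAAA), the myeloid factor PU.1 (GAGGAAGT), its shorter ETS core (GAGGAA, contained in the PU.1 letters) and C/EBP (TTGCNNAA). Capitals mark the matches.
Fcgr1 (chr3:96293920-96294219, minus): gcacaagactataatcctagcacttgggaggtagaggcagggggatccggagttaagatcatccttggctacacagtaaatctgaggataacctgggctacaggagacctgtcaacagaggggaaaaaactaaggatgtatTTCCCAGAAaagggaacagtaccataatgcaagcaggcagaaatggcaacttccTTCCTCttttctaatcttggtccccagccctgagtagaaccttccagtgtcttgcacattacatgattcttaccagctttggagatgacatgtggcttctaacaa
Fcgr3 (first of 2 annotated starts, chr1:171059354-171059653, minus): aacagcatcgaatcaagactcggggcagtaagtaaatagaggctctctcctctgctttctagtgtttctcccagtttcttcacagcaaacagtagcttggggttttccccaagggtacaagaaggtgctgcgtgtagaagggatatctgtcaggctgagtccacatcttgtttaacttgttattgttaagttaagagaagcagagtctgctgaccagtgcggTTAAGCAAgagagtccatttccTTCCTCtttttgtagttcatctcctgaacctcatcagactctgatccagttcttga
Fcgr4 (chr1:171018676-171018975, plus): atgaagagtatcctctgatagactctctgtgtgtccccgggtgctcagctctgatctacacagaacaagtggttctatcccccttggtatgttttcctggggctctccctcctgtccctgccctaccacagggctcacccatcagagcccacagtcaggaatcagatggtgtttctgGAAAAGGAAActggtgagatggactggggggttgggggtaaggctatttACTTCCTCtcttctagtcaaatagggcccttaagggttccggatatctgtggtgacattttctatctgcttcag
The Fcgr1 window held a GAS match 109 bases before the start and an ETS core. The Fcgr3 window held a C/EBP match and an ETS core, and the Fcgr4 window held an ISRE core 73 bases before the start and a PU.1 match. Of 32851 promoters of the same length, 8.3% held the GAS letters, 3.44% the ISRE core, 3.2% the PU.1 letters, 28.3% the ETS core and 10.8% the C/EBP letters. RefSeq entries were found for 7 of the 8 members, 9 promoters in all. Those of Fcgr2b and Fcer1g and 1 of the 2 of Syk had no match. A match describes these letters only.

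Depth was 33453580 to 68316154 counts per library, so that a count of 0 would allow up to 0.0348 to 0.124 CPM (counts per 1000000 counts). Counts were scaled by TMM, whose factors were 0.7244 to 0.8627 in Gr-1hi and 1.257 to 1.302 in Gr-1lo libraries, and CPM below are TMM-scaled. The gate was visible in the data, since the neutrophil gene Ly6g was higher in Gr-1hi than Gr-1lo cells by 7.46 on the log2 scale in BM and by 5.87 in SP, and the monocyte gene Csf1r was lower by 1.56 and 1.15. Xist, transcribed from the inactive X chromosome, had 12032 counts in library 5 and 9898 in library 7 but at most 5 in the others, whereas the Y-linked Ddx3y had 0 counts in library 5 and 33.7 to 82.7 CPM in the other 7. Ddx3y mRNA was thus present in 7 of the 8 libraries, all labelled female, and library 7 held both. Without libraries 5 and 7 the same members were called in each of the 5 comparisons below.

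The Gr-1 subsets differed in most of these genes. In both tissues Gr-1hi cells held more Fcgr3, Fcgr4, Syk and Tyrobp mRNA and far less Fcgr1 mRNA than Gr-1lo cells. Calls required an adjusted p no higher than 0.05 and at least a 2-fold change (FC) by the quasi-likelihood method of edgeR, adjusted by Benjamini-Hochberg over all 17650 genes. In BM 7 of 8 members were called, beside 57.3% of all genes tested, 5 of them higher in Gr-1hi cells (24.2% of all genes) and 2 lower (33.1%). In SP 6 of 8 were called, beside 49.6% of all genes, 4 of them higher (22.3% of all genes) and 2 lower (27.4%). Libraries of the subsets overlapped for no member in either tissue, as for 88.9% of all genes in BM and 86.2% in SP. The median log2 FC of the members was 1.31 in BM and 0.995 in SP, against -0.17 and -0.09 over all genes. Under the study's stricter rule for this contrast, an FC over 8 with adjusted p under 0.01, Fcgr1 alone passed in each tissue, beside 16.7% of all genes in BM and 7.37% in SP.

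**Figure D1:**
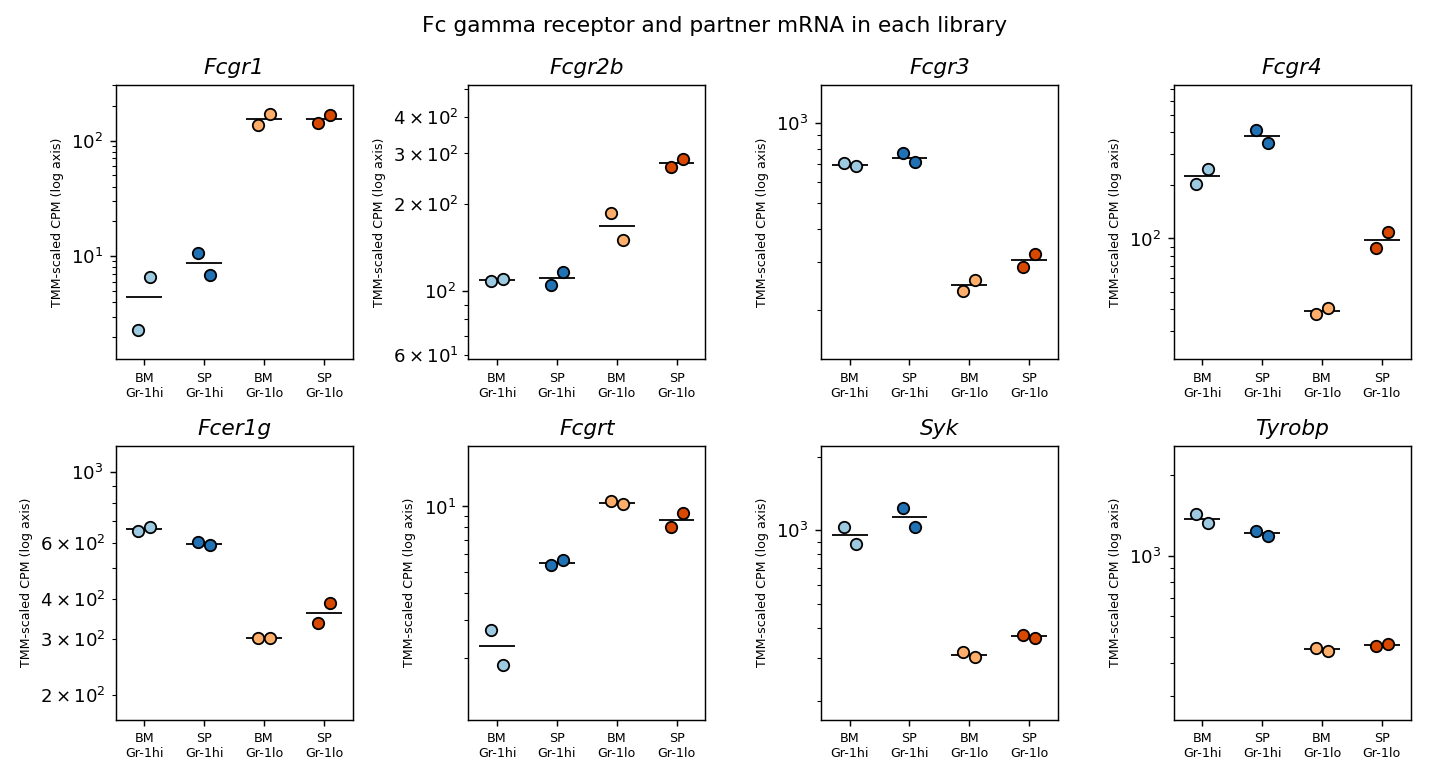
TMM-scaled CPM of the 8 genes in each library (log axis, with its own range in each panel). Points are libraries and bars the mean of the 2 libraries of a group. Fcgr1, Fcgr2b and Fcgrt lie higher in both Gr-1lo groups, while the other 5 genes lie higher in both Gr-1hi groups.

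Fcgr1, encoding the high-affinity receptor CD64, gave the widest contrast. Its level was 10.6 and 6.89 CPM in SP Gr-1hi libraries 5 and 6 and 2.32 and 6.56 CPM in BM Gr-1hi libraries 9 and 10. In Gr-1lo cells it was 141 and 167 CPM in SP and 136 and 168 CPM in BM. Every Gr-1lo library thus lay far above every Gr-1hi library. The log2 FC of Gr-1hi against Gr-1lo was -5.11 in BM (SE 0.47, adjusted p = 6.815e-05 in edgeR's quasi-likelihood test), and -4.14 in SP (SE 0.44, adjusted p = 1.742e-04).

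Within Gr-1hi cells, the Fcgr1 counts were few and uneven. Libraries 9 and 10 of BM held 62 and 159 counts, and libraries 5 and 6 of SP held 350 and 216. Library 10 also held 31.2 CPM of Fn1, a gene of classical monocytes, where the other 3 Gr-1hi libraries held 1.12 to 1.53 CPM and the Gr-1lo libraries 1220 to 3656 CPM. Its summed level of 8 classical monocyte genes was 1809 CPM, against 1133 to 1385 CPM in the other Gr-1hi libraries and 6933 to 10200 CPM in Gr-1lo cells. Most of the library 10 sum was Ly6c2, at 1516 CPM, against 585 to 1133 CPM in the other Gr-1hi libraries. Csf1r, of the same list, went the other way, at 133 CPM in library 10 against 175 to 375 CPM. The log2 FC of Fcgr1 in SP against BM Gr-1hi cells was 0.99 (95% interval -0.09 to 2.07, adjusted p = 0.1375 in edgeR's quasi-likelihood test) with library 10 and 1.81 without it. The part of these monocyte genes in that difference was not tested.

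Fcgr3, encoding the low-affinity activating receptor known as CD16, was abundant in all groups. It measured 769 and 710 CPM in SP Gr-1hi, 705 and 687 CPM in BM Gr-1hi, 290 and 323 CPM in SP Gr-1lo, and 235 and 259 CPM in BM Gr-1lo libraries. The subsets did not overlap. Gr-1hi exceeded Gr-1lo cells by 1.49 (SE 0.098) in BM and 1.27 (SE 0.097) in SP on the log2 scale, with adjusted p of 1.626e-06 and 6.613e-06 in edgeR's quasi-likelihood test.

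Fcgr4, whose product binds IgG2 subclasses and is found on neutrophils and non-classical monocytes, depended on both the subset and the organ. It measured 408 and 345 CPM in SP Gr-1hi, 204 and 247 CPM in BM Gr-1hi, 88.7 and 108 CPM in SP Gr-1lo, and 37.6 and 40.5 CPM in BM Gr-1lo libraries. The 4 groups did not overlap, and SP lay above BM within each subset. The log2 FC of Gr-1hi against Gr-1lo was 2.53 in BM (SE 0.15, adjusted p = 8.574e-07 in edgeR's quasi-likelihood test) and 1.93 in SP (SE 0.14, adjusted p = 5.589e-06).

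Fcgr2b, the inhibitory receptor, went the other way. It measured 105 and 117 CPM in SP Gr-1hi, 109 and 110 CPM in BM Gr-1hi, 270 and 288 CPM in SP Gr-1lo, and 186 and 150 CPM in BM Gr-1lo libraries. The Gr-1hi libraries of both organs lay close together and the Gr-1lo libraries were set apart by organ. In SP it was called lower in Gr-1hi cells, with a log2 FC of -1.33 (adjusted p = 1.324e-05 in edgeR's quasi-likelihood test, SE 0.12). In BM the log2 FC was -0.62 (SE 0.11, adjusted p = 0.001062), under the FC of 2.

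The adaptors, the most abundant members per transcript length, stood higher in Gr-1hi cells under TMM scaling. With counts scaled to total counts instead, Fcer1g was close to level in SP, at a log2 FC of 0.12. Fcer1g, the shared chain of the activating receptors, measured 601 and 591 CPM in SP Gr-1hi, 651 and 671 CPM in BM Gr-1hi, 335 and 389 CPM in SP Gr-1lo, and 301 CPM in both BM Gr-1lo libraries. Tyrobp measured 1237 and 1192 CPM in SP Gr-1hi, 1433 and 1327 CPM in BM Gr-1hi, 462 and 472 CPM in SP Gr-1lo, and 457 and 442 CPM in BM Gr-1lo libraries. Neither gene overlapped between the subsets. The log2 FC of Tyrobp was 1.62 (adjusted p = 5.781e-07 in edgeR's quasi-likelihood test) in BM and 1.38 (adjusted p = 2.547e-06) in SP. That of Fcer1g was 1.14 (adjusted p = 6.217e-06) in BM and 0.72 (adjusted p = 1.361e-04) in SP, the latter under the FC of 2.

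Syk, the kinase that both adaptors recruit, measured 1236 and 1030 CPM in SP Gr-1hi, 1033 and 882 CPM in BM Gr-1hi, 373 and 363 CPM in SP Gr-1lo, and 317 and 301 CPM in BM Gr-1lo libraries. Its log2 FC of Gr-1hi against Gr-1lo was nearly the same in both tissues, 1.63 in BM (SE 0.12, adjusted p = 2.956e-06 in edgeR's quasi-likelihood test) and 1.62 in SP (SE 0.12, adjusted p = 5.363e-06).

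Fcgrt mRNA was scarce in every group. It measured 5.37 and 5.65 CPM in SP Gr-1hi, 2.69 and 1.86 CPM in BM Gr-1hi, 8.00 and 9.31 CPM in SP Gr-1lo, and 10.6 and 10.2 CPM in BM Gr-1lo libraries, from 45 to 803 counts. BM Gr-1hi libraries were the lowest and BM Gr-1lo libraries the highest. In BM it was called lower in Gr-1hi cells, with a log2 FC of -2.19 (adjusted p = 1.069e-05 in edgeR's quasi-likelihood test, SE 0.20), while in SP the log2 FC was -0.65 (SE 0.18, adjusted p = 0.009481), under the FC of 2. B2m, whose product is the light chain of FcRn and of MHC class I, stood at 3047 ± 95.3 CPM (SD, n = 2) in SP Gr-1hi and 2544 ± 304 CPM in BM Gr-1hi against 1563 ± 146 CPM in SP Gr-1lo and 1352 ± 151 CPM in BM Gr-1lo cells. The log2 FC of B2m was 0.91 (BM) and 0.96 (SP), under the FC of 2. It depended on the scaling, at 0.10 and 0.36 on total counts and at 1.06 and 1.10, past the FC of 2 in both tissues, with the size factors of DESeq2 (RLE), so no direction is given for it.

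**Figure D2:**
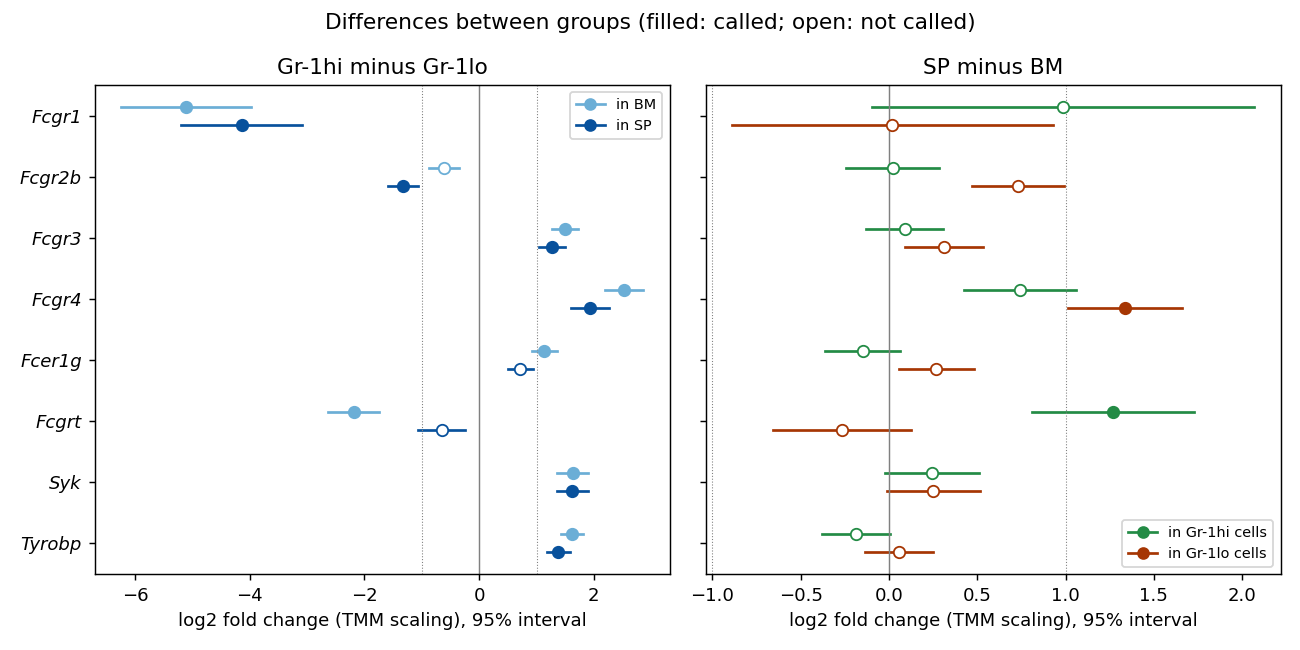
Log2 FC of the 8 genes between Gr-1hi and Gr-1lo cells (left) and between SP and BM (right), with 95% intervals from the fit. Filled points were called (adjusted p of at most 0.05 and FC of at least 2) and dotted lines mark an FC of 2. On the left 7 points are filled in BM and 6 in SP, on the right Fcgr4 in Gr-1lo and Fcgrt in Gr-1hi cells.

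The sizes of the subset differences depend on the scaling. The 10 highest genes held 9.15% to 14.4% of the counts in Gr-1hi libraries and 5.30% to 5.91% in Gr-1lo libraries, and their part in this was not tested. When counts were scaled to the total counts instead, the median log2 FC of all genes moved to -0.99 in BM and -0.69 in SP. On that scale the log2 FC in BM was 0.68 for Fcgr3, 1.72 for Fcgr4, 0.32 for Fcer1g, 0.82 for Syk and 0.81 for Tyrobp, and -5.92, -1.44 and -2.999 for Fcgr1, Fcgr2b and Fcgrt. In BM 4 members were then called (1 higher, 3 lower) and in SP 5 (2 higher, 3 lower). The share of all genes called is given here for TMM only. Counts called under other scalings, here and below, are therefore not read as results about the members or lists. The direction of every member between the subsets was the same under each scaling tried, but Fcer1g was close to level in SP on total counts, with a log2 FC of 0.12 (adjusted p = 0.266 in edgeR's quasi-likelihood test).

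**Figure D3:**
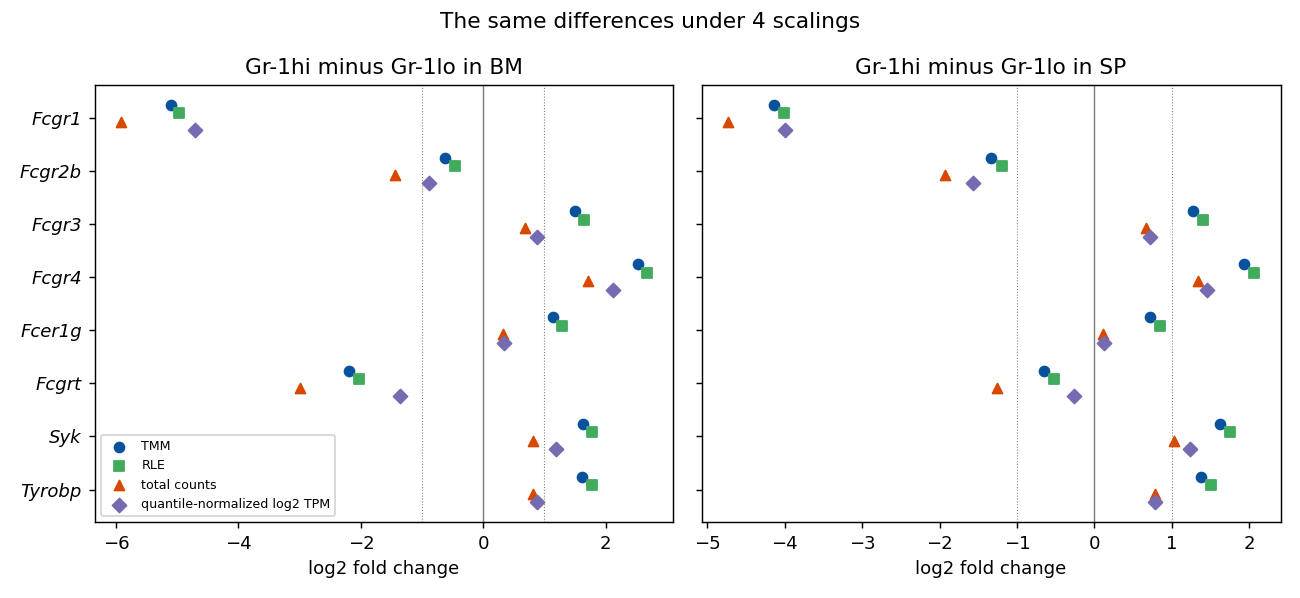
Log2 FC of Gr-1hi against Gr-1lo cells for the 8 genes under TMM, RLE, total-count scaling and quantile-normalized log2 TPM. Points of a gene keep their side of 0 while the total-count values lie to the left of the TMM values, as for Fcer1g in BM, at 0.32 and 1.14.

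Ratios of members within a library do not depend on the scaling. There were 6.07 to 7.33 counts of the activating Fcgr3 for each count of the inhibitory Fcgr2b in the 4 Gr-1hi libraries and 1.07 to 1.72 in the 4 Gr-1lo libraries. The Fcgr4 to Fcgr2b count ratio was 1.88 to 3.89 in Gr-1hi and 0.202 to 0.377 in Gr-1lo libraries. The Fcgr1 to Fcgr2b count ratio ran the other way, at 0.0213 to 0.101 in Gr-1hi and 0.524 to 1.12 in Gr-1lo libraries. The Fcer1g to Tyrobp count ratio was 0.454 to 0.506 in Gr-1hi and 0.659 to 0.823 in Gr-1lo libraries. These are ratios of counts, not of molecules, since the transcripts differ in length.

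None of the 4 ratios overlapped between the subsets. The difference in mean log2 ratio, Gr-1hi minus Gr-1lo, was 2.35 for Fcgr3 to Fcgr2b, 3.20 for Fcgr4 to Fcgr2b, -3.75 for Fcgr1 to Fcgr2b and -0.57 for Fcer1g to Tyrobp. Each had a two-sided exact permutation p of 0.02857 over 4 against 4 libraries, the smallest that 70 arrangements can give, and an adjusted p of 0.05714 over the 8 tests, so none passed 0.05 after adjustment. Between SP and BM the same ratios differed by -0.18, 0.66, 0.20 and 0.12, with exact permutation p of 0.5143 to 0.9143. That permutation mixed the Gr-1 subsets, so their difference entered its spread and it cannot decide on an organ difference. The Fcgr4 to Fcgr2b log2 ratio was higher in SP within each subset. It was 1.56 and 1.96 against 0.91 and 1.16 in Gr-1hi, and -1.60 and -1.41 against -2.31 and -1.89 in Gr-1lo libraries. The other ratios overlapped between organs in Gr-1hi libraries but not in Gr-1lo libraries. There the log2 ratio of Fcgr1 to Fcgr2b was -0.93 and -0.79 in SP against -0.45 and 0.16 in BM. That of Fcgr3 to Fcgr2b was 0.10 and 0.17 in SP against 0.34 and 0.78 in BM. That of Fcer1g to Tyrobp was -0.46 and -0.28 in SP against -0.60 and -0.56 in BM.

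**Figure D4:**
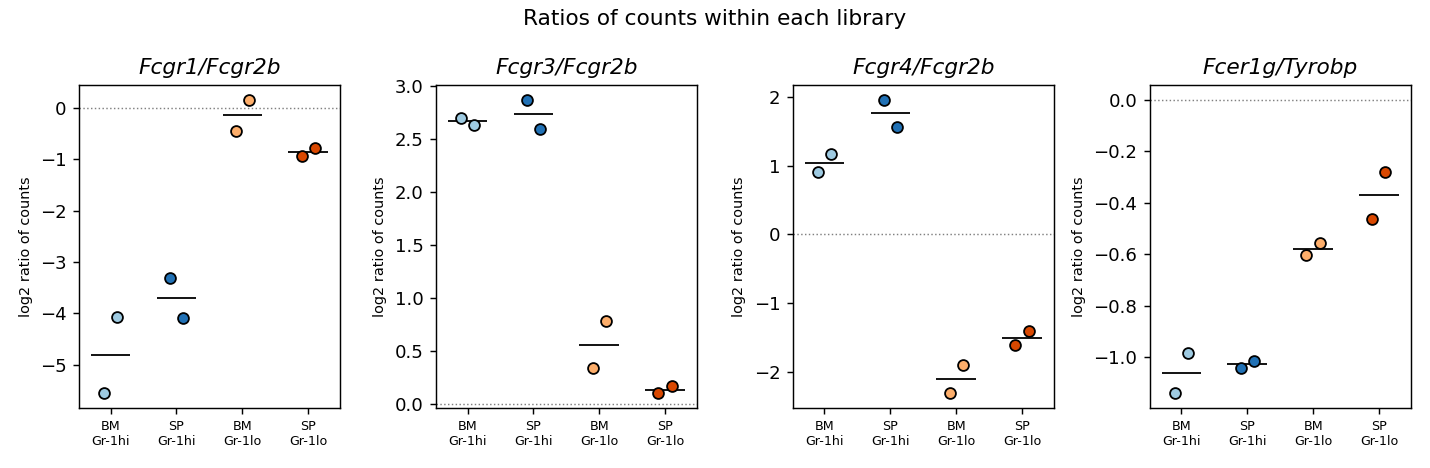
Log2 ratio of counts within each library for Fcgr1, Fcgr3 and Fcgr4 over Fcgr2b and for Fcer1g over Tyrobp. Points are libraries, bars group means and the dotted line equal counts. Both Gr-1hi groups lie above both Gr-1lo groups for Fcgr3 and Fcgr4 over Fcgr2b, and below them for the other 2 ratios.

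Between organs few members moved. Among Gr-1lo cells, Fcgr4 was the only one of the 8 called, beside 4.06% of all genes tested. It was higher in SP, 98.6 ± 13.9 CPM against 39.1 ± 2.07 CPM in BM (SD, n = 2 each), a log2 FC of 1.34 (adjusted p = 0.001187 in edgeR's quasi-likelihood test, SE 0.14). Fcgr2b was 1.66-fold higher in SP, with a log2 FC of 0.73 (SE 0.11, adjusted p = 0.007718), under the FC of 2. The Fcgr1 level was close in both organs, with a log2 FC of 0.02 whose 95% interval ran from -0.89 to 0.93, and the other 5 members had log2 FC from -0.27 (Fcgrt) to 0.31 (Fcgr3) with adjusted p of 0.1173 or more. Libraries of SP and BM did not overlap for 7 members, as for 59.7% of all genes. Without a minimum FC, Fcgr2b and Fcgr4 passed, beside 5.58% of all genes.

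Among Gr-1hi cells Fcgrt was the only member called, beside 15.5% of all genes tested. It was higher in SP, 5.50 ± 0.20 CPM against 2.27 ± 0.59 CPM in BM (SD, n = 2 each), a log2 FC of 1.27 (adjusted p = 0.002573 in edgeR's quasi-likelihood test, SE 0.20), and without library 10 of BM the log2 FC was 0.93 (adjusted p = 0.01649), under the FC of 2. Fcgr4 was 1.67-fold higher in SP, with a log2 FC of 0.74 (SE 0.14, adjusted p = 0.005202). Fcgr2b was level, with a log2 FC of 0.02 and a 95% interval of -0.24 to 0.28. Fcgr3, Syk, Fcer1g and Tyrobp had log2 FC between -0.18 and 0.24, with adjusted p of 0.1242 or more. Without a minimum FC, Fcgr4 and Fcgrt passed, beside 34% of all genes, and the libraries did not overlap for 6 members, as for 67.8% of all genes. For Fcgr4 the direction from BM to SP was thus the same in both subsets and under all 16 alternatives.

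The subset difference itself was tested between the organs as an interaction, the log2 FC of Gr-1hi against Gr-1lo in SP minus that in BM. Fcgrt was the only member called, with an interaction of 1.53 (SE 0.26, adjusted p = 0.009026 in edgeR's quasi-likelihood test), beside 9.74% of all genes. For Fcgr2b the interaction was -0.71 (SE 0.16, adjusted p = 0.02279), an FC of 1.63, and without a minimum FC these 2 genes passed, beside 16.4% of all genes. For Fcgr4 it was -0.60 (adjusted p = 0.07316) and for Syk -0.01, with a 95% interval of -0.38 to 0.37. Without library 10 Fcgr1 was called too, at 1.78 (adjusted p = 0.02897).

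Markers of other cells moved with some of these differences. B cells carry Fcgr2b as their Fc gamma receptor, and the summed level of 10 B cell genes was 385 to 559 CPM in SP Gr-1hi, 27.2 to 29.9 CPM in BM Gr-1hi, 71.9 to 90.5 CPM in SP Gr-1lo and 11.7 to 12.5 CPM in BM Gr-1lo libraries. In Gr-1hi cells the B cell sum was more than 10 times higher in SP, and Fcgr2b differed by a log2 FC of 0.02. In Gr-1lo cells both were higher in SP. The part of B cell mRNA in the Fcgr2b level was not tested in either subset. None of the 10 B cell genes was at 0 in both libraries of a group.

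Non-classical monocytes carry much Fcgr4. The summed level of 9 of their genes was 1229 to 1232 CPM in SP Gr-1lo, 674 to 747 CPM in BM Gr-1lo, 1806 to 1807 CPM in SP Gr-1hi and 1167 to 1230 CPM in BM Gr-1hi libraries. In each subset 3 of the 9 were called higher in SP and none lower. Over all genes 4.06% were called in Gr-1lo and 15.5% in Gr-1hi cells, in either direction. Itgal had the highest mean of the 9 in each group, from 285.5 CPM in BM Gr-1lo to 1235 CPM in SP Gr-1hi cells. Spn alone had lower means in SP, 173 against 241 CPM in Gr-1lo and 108 against 135 CPM in Gr-1hi cells. Ace, one of the 9, measured 48.4 and 39.9 CPM in SP Gr-1lo, 2.73 and 1.13 CPM in BM Gr-1lo, 49.3 and 35.8 CPM in SP Gr-1hi, and 4.86 and 9.99 CPM in BM Gr-1hi libraries. The part of these cells in the organ difference of Fcgr4 was not tested. In bulk samples fewer cells of a type and less mRNA per cell cannot be told apart.

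Splenic macrophage genes summed to 820 to 973 CPM in SP Gr-1hi, 513 to 566 CPM in BM Gr-1hi, 113 to 117 CPM in SP Gr-1lo and 72.4 to 83.3 CPM in BM Gr-1lo libraries. The iron exporter Slc40a1 held most of the sum in Gr-1hi cells, at 751 CPM (SP) and 480 CPM (BM) on average. In Gr-1lo cells Slc40a1 was at 30.3 and 21.4 CPM, below Vcam1 of the same list at 32.0 and 44.9 CPM. Natural killer cell genes, of a lineage that uses Fcgr3, summed to 3.30 to 37.9 CPM in the 8 libraries, against 235 to 769 CPM of Fcgr3. Nkg7 held 20.2 to 37.4 CPM of that sum in Gr-1lo libraries. The other genes of the list had their highest means in SP Gr-1hi cells, at 0.51 (Klra8) to 3.89 CPM (Gzma). The part of natural killer cells in Fcgr3 was not tested. Plasma cell genes summed to 56.2 to 145 CPM in SP and 9.66 to 15.8 CPM in BM libraries, dendritic cell genes to 17.1 to 36.6 and 5.55 to 8.32 CPM, and erythroid genes to 167 to 734 and 7.70 to 44.1 CPM. Eosinophil and basophil genes summed to 33.6 to 56.2 CPM in Gr-1hi and 11.6 to 16.3 CPM in Gr-1lo libraries. Tnfrsf17 was at 0 in both libraries of BM Gr-1hi, and Ccr7 in both of BM Gr-1lo cells. The 8 T cell genes summed to 1.54 to 106 CPM and were highest in SP Gr-1hi libraries. The neutrophil sum, 75850 to 140800 CPM in Gr-1hi and 4079 to 9097 CPM in Gr-1lo libraries, was higher in the Gr-1lo cells of SP (7863 to 9097 CPM) than in those of BM (4079 to 4203 CPM).

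**Figure D5:**
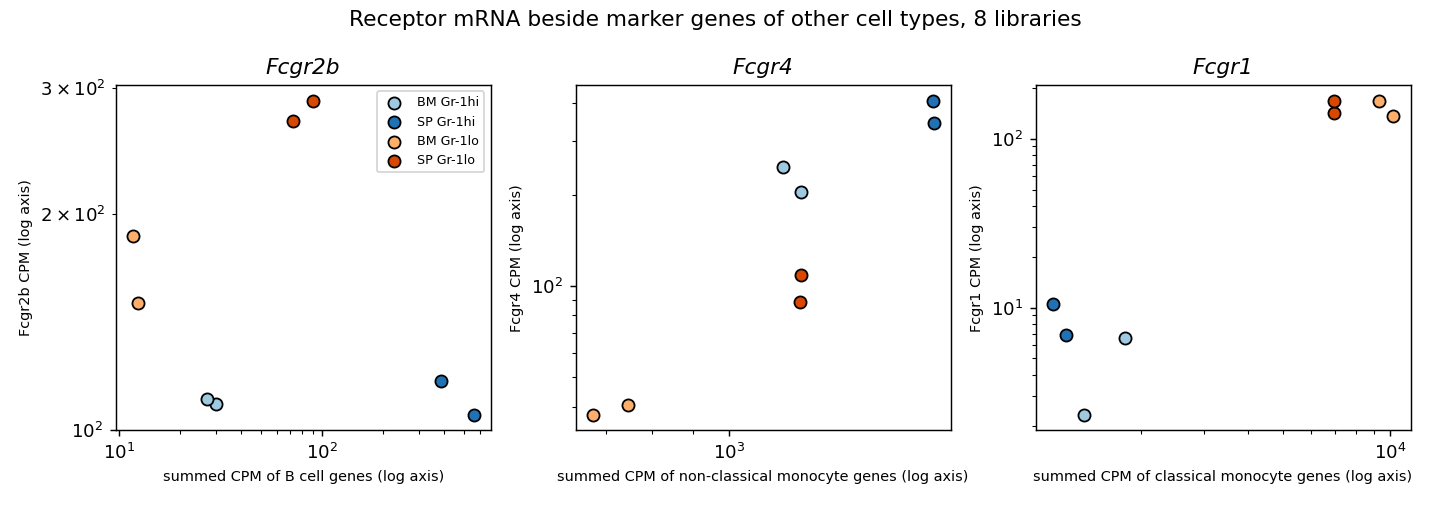
CPM of Fcgr2b, Fcgr4 and Fcgr1 against the summed CPM of B cell, non-classical monocyte and classical monocyte genes in the 8 libraries (log axes). SP Gr-1hi libraries have the highest B cell sums and stay near the BM Gr-1hi libraries in Fcgr2b, at 105 to 117 CPM against 109 to 110 CPM.

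Levels of different genes are compared as TPM (transcripts per 1000000 transcripts), which account for exon length. In every group Tyrobp was the highest member, followed by Fcer1g and Fcgr3, for example 3663 ± 304, 1370 ± 94.0 and 858 ± 97.3 TPM (SD, n = 2) in SP Gr-1hi cells. The activating receptors there stood in the order Fcgr3, Fcgr4 (604 ± 106 TPM) and Fcgr1 (6.83 ± 2.39 TPM), and the inhibitory Fcgr2b held 38.4 ± 0.79 TPM. In SP Gr-1lo cells Fcgr4 (231 ± 26.0 TPM), Fcgr1 (175 ± 15.4 TPM) and Fcgr2b (142 ± 2.45 TPM) lay within a narrow range below Fcgr3 (520 ± 25.2 TPM). In BM Gr-1lo cells Fcgr1 (181 ± 24.6 TPM) stood above Fcgr4 (95.7 ± 3.83 TPM) and Fcgr2b (89.5 ± 14.6 TPM), and these last genes and Syk (102 ± 4.87 TPM) did not differ beyond their spread. Fcgrt held 1.82 to 15.3 TPM on average in the 4 groups.

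Neighbouring genes on chromosome 1 went in different directions. The interval from the start of Fcgr2b to the end of Fcer1g spans 275.7 kb and holds 9 genes that were tested. Fcgr2b was lower in Gr-1hi cells while its neighbours Fcgr4 and Fcgr3 were higher. Gm26110 (chr1:171027965-171028129) lies inside Fcgr4 on the same strand, without sharing an exon with it, and held at most 1.31 CPM on average in a group. Between Fcgr3 and Fcer1g lie Cfap126, Sdhc, a subunit of succinate dehydrogenase, Pcp4l1 and Tomm40l. In BM all 4 were called lower in Gr-1hi cells, beside 33.1% of all genes, with log2 FC from -3.06 (Cfap126) to -1.34 (Sdhc). In SP Cfap126, Sdhc and Tomm40l were called lower, beside 27.4% of all genes, and Pcp4l1 was not called (log2 FC 0.97). Cfap126 and Pcp4l1 were scarce, with at most 1.40 and 0.78 CPM on average in a group.

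Beyond the members, the Src family kinases that phosphorylate ITAM motifs were compared between the subsets. Of 8 tested, 6 were called higher and 1 lower in BM in edgeR's quasi-likelihood test, beside 24.2% and 33.1% of all genes, and 6 higher and none lower in SP, beside 22.3% and 27.4%. The calls in SP include Blk and Lck, kinases of B and T cells, with log2 FC of 2.645 and 1.498. Their part beside the B and T cell sums of the SP Gr-1hi libraries was not tested, and Lck was no longer called on total counts (log2 FC 0.91) or without libraries 5 and 7 (0.83). Fgr was at 1210 ± 36.3 CPM in BM Gr-1hi against 284 ± 34.5 CPM in BM Gr-1lo cells, a log2 FC of 2.09 (adjusted p = 1.289e-06). Fyn was the one called lower in BM, by a log2 FC of -2.35. Lyn, which serves both activating and inhibitory receptors, was at 648 ± 12.3 against 421 ± 16.7 CPM in BM, a log2 FC of 0.62 (adjusted p = 2.635e-04), under the FC of 2. On total counts the sign of this value turned, to -0.19 (adjusted p = 0.1301 in edgeR's quasi-likelihood test), so no direction is given for Lyn. On total counts 4 of the 8 were called higher in BM and 4 in SP. Between organs Blk and Lck led the list in Gr-1hi cells with log2 FC of 4.34 and 4.33. They stood beside the B and T cell sums given above, which include Blk and Lck themselves. The part of those cells was not tested.

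For the activating relay below Syk, calls went both ways. Of 26 genes for adaptors, Vav exchange factors, phospholipases, phosphoinositide kinases and GTPases, 8 were called higher and 3 lower in Gr-1hi cells of BM, beside 24.2% and 33.1% of all genes, and 7 higher and 1 lower in SP, beside 22.3% and 27.4%. On total counts these became 2 higher and 4 lower in BM and 3 higher and 1 lower in SP, and the median of the list changed from 0.77 to -0.03 in BM, so no direction is given for the list. Rac2, the haematopoietic Rac GTPase of the phagocyte oxidase, was at 2991 ± 53.6 CPM in BM Gr-1hi against 550 ± 5.66 CPM in BM Gr-1lo cells, a log2 FC of 2.44 (adjusted p = 1.422e-07 in edgeR's quasi-likelihood test). Lat2, a transmembrane adaptor, was lower in Gr-1hi cells (log2 FC -2.51 in BM, -1.60 in SP). Between organs Pik3ap1, an adaptor of phosphoinositide 3-kinase, was called higher in SP Gr-1lo cells, with a log2 FC of 1.14 (adjusted p = 4.846e-04), and the list had 3 calls there and 4 in Gr-1hi cells, beside 4.06% and 15.5% of all genes called in either direction.

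The inhibitory relay of phosphatases, Dok adaptors and Cbl ligases had 4 of 14 genes called higher and 4 lower in Gr-1hi cells of BM, beside 24.2% and 33.1% of all genes, and 2 higher and 3 lower in SP, beside 22.3% and 27.4%. On total counts 1 was higher and 5 were lower in each tissue. Inpp5d (SHIP1), the main effector of the Fcgr2b product, was at 364 ± 30.4 CPM in BM Gr-1hi and 200 ± 5.68 CPM in BM Gr-1lo cells, a log2 FC of 0.86 (adjusted p = 2.073e-05 in edgeR's quasi-likelihood test), under the FC of 2. On total counts its log2 FC was 0.051 (BM) and -0.057 (SP), so no direction is given for it. Inppl1 (SHIP2), a related lipid phosphatase, was at 1.03 ± 0.41 CPM in BM Gr-1hi and 28.0 ± 1.94 CPM in BM Gr-1lo cells, a log2 FC of -4.77 (adjusted p = 6.552e-07). Pag1, which anchors the Src-inhibiting kinase Csk, had a log2 FC of 3.08 (BM) and 2.69 (SP), and the ubiquitin ligase Cblb of -2.90 and -1.38. Between SP and BM in Gr-1lo cells edgeR's quasi-likelihood test, DESeq2 and limma each called 0 of the 14, with 2, 1 and 3 genes at an unadjusted p under 0.05. By edgeR 4.06% of all genes were called there. In Gr-1hi cells 2 of the 14 were called higher in SP and 0 lower, beside 15.5% of all genes. Cblb was one, with a log2 FC of 1.73 (adjusted p = 1.73e-04 in edgeR's quasi-likelihood test), while the median of the list was -0.19.

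Other receptors and adaptors that use the Fcer1g or Tyrobp product were almost all higher in Gr-1hi cells, the median log2 FC being 3.01 (BM) and 2.60 (SP). Of 11 tested, 10 were called higher and 1 lower in Gr-1hi cells of BM, and 9 higher and 1 lower in SP, beside the shares of all genes given above, and on total counts 9 and 1, and 8 and 1. Clec4d, a C-type lectin that signals through the gamma chain, was at 401 ± 65.0 CPM in BM Gr-1hi against 4.69 ± 1.48 CPM in BM Gr-1lo cells, a log2 FC of 6.42 (adjusted p = 3.18e-07 in edgeR's quasi-likelihood test). Trem1, an activating partner of DAP12, was at 497 ± 32.7 against 13.7 ± 6.83 CPM, a log2 FC of 5.18 (adjusted p = 6.364e-06). Trem2, which uses the same adaptor, was the one called lower, at 1.09 ± 0.27 against 28.5 ± 1.29 CPM in BM and 0.371 ± 0.029 against 22.3 ± 0.46 CPM in SP, with log2 FC of -4.72 and -5.90. Between organs 1 of the 11 was called higher and 2 lower in SP Gr-1hi cells, with a median log2 FC of -0.47. In Gr-1lo cells 2 were called higher and 0 lower. Over all genes 15.5% and 4.06% were called in either direction. Clec4n (Dectin-2) was the one higher in SP Gr-1hi cells (log2 FC 2.49). Cd300ld was called higher in SP Gr-1lo cells (1.19, adjusted p = 0.02866 in edgeR's quasi-likelihood test), but not without libraries 5 and 7 (1.255).

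Of 13 further Fc receptor genes 9 were tested, and all calls were towards SP or towards Gr-1hi cells: 5 higher in SP among Gr-1lo and 6 among Gr-1hi cells, and 6 higher in Gr-1hi cells of BM and 8 of SP, with none called lower under TMM. Over all genes 4.06% and 15.5% were called between organs in either direction, and 24.2% and 22.3% were called higher in Gr-1hi cells of BM and SP. On quantile-normalized TPM 2 were higher in SP among Gr-1lo cells, and 5 higher and 1 lower among Gr-1hi cells. The leading genes were Fcer2a (CD23) and Fcmr, receptors of B cells for IgE and IgM, with log2 FC of 5.72 and 5.23 between SP and BM in Gr-1hi cells at 15.6 and 22.9 CPM in SP. All 13 genes summed to 142.5 to 189.5 CPM in SP Gr-1hi and 66.7 to 89.8 CPM in BM Gr-1hi libraries. In Gr-1lo libraries their sum was 46.2 to 55.5 CPM in SP and 35.15 to 42.62 CPM in BM. Within each subset it was higher in SP, as was the B cell sum. Between BM Gr-1hi and SP Gr-1lo libraries it ran opposite to the B cell sum. Fcer2a is itself in the B cell list, and the part of B cells was not tested.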

How the data were processed

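The authors prepared stranded mRNA libraries, sequenced paired 101-base reads, aligned them to GRCm38 and deposited raw counts per gene, without normalization. The labels name FastQC, STAR and featureCounts, and the study's methods also name Sickle as a read filter. How reads matching several genes were counted is not given in the sources used here. Groups came from the labels. The members and gene lists were chosen with earlier results of these data known.

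The analysis used edgeR 4.0.16 (R 4.3.3) after filterByExpr and TMM scaling. All 8 libraries entered one robust quasi-likelihood model, with a term for each group (4 residual degrees of freedom), with Benjamini-Hochberg adjustment over 17650 genes, and was tested on simulated data. Log2 ratios were compared by exact permutation. TPM used exon lengths of GENCODE M21, which held 53947 of 54188 identifiers. Intervals are at 95%, and floors (3 counts) cover counting error only. Replicate libraries differed by more than sampling noise (chi-square over its degrees of freedom, 18.9 to 66.7).

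Named genes were the members, B2m, checks of the labels (Xist, Ddx3y) and gate (Ly6g, Itgam, Csf1r), and of each pathway list up to 3 called genes per comparison with the largest log2 FC at 10 CPM or more in the higher group. Some genes that this rule names are not reported here. The rule also took the 2 most abundant genes of each marker list (such as Fn1 and Slc40a1) and the 2 genes most correlated with each member. Ace was named after its values were seen, as were Lyn, Inpp5d and the genes between Fcgr3 and Fcer1g. Alternatives were RLE and upper-quartile scaling, no filter, DESeq2 1.42.0, limma 3.58.1 on quantile-normalized log2(TPM + 1), only the 4 libraries compared, omission of each library and of libraries 5 and 7, other thresholds and, added after the TMM factors were seen, total-count scaling.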

Additional observations from a re-analysis of the deposited data

Results flagged for a closer look

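The difference between Gr-1hi and Gr-1lo cells was not the same in SP and BM for 2 of the 8 genes, by the interaction term of the quasi-likelihood model of edgeR with Benjamini-Hochberg adjustment over all genes. For Fcgrt the interaction was 1.53 (adjusted p = 0.009026): the log2 FC of Gr-1hi against Gr-1lo was -2.19 in BM and -0.65 in SP. Over the alternatives it ran from 1.10 to 1.74 and stayed called. For Fcgr2b the interaction was -0.71 (adjusted p = 0.02279): the log2 FC was -0.62 in BM and -1.33 in SP, and over the alternatives it ran from -0.88 to -0.50, with adjusted p of 1.291e-04 to 0.09634. Groups of 2 libraries were too small for a test of single samples that stand apart.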

How the results depend on the processing

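Of 632 values of single genes under 16 alternatives, 590 kept their direction and their side of the threshold, 13 lost a call, 4 gained one and 25 changed sign. All 72 ratio values moved by less than the spread between replicates. No paired analysis was possible because the groups share no replicate number. Where leaving out a library left 1 in a group, that library was assumed to vary like the others. Without a minimum FC, 2 members passed in SP against BM in each subset and 2 in the interaction. Quantile-normalized TPM gave 0 members called in Gr-1hi cells between organs (2 of the 8 at an unadjusted p under 0.05, and 1 called by edgeR and by DESeq2) and 4 in BM between subsets, and total-count scaling 4. The stricter rule left 1 in each tissue. Leaving out single libraries gave 1 to 2 members in the interaction. All sign changes were of values that were not called. The log2 FC of Fcgr1 in Gr-1lo cells between organs was -0.038 with RLE and DESeq2, -0.010 on quantile-normalized TPM, and -0.12 to 0.18 without single libraries. That of Tyrobp there was -0.0016 with RLE and DESeq2 and -0.076 on quantile-normalized TPM. In Gr-1hi cells between organs, Fcgr2b was at -0.055 with RLE and DESeq2 and -0.14 to 0.023 without single libraries, and Fcgr3 at -0.051 to 0.091. Fcer1g was at 0.027 on quantile-normalized TPM and 0.059 on total counts, and Tyrobp at 0.024 on total counts. The interaction of Syk was 0.034 with upper-quartile scaling, 0.043 on quantile-normalized TPM, 0.21 on total counts and -0.24 to 0.026 without single libraries. The cause of these changes was not tested. The lowest count of a member in a library was 45.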

Other observations

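The genes whose log2 CPM ran most like a member's over the 8 libraries were sought among 8596 genes of at least 10 CPM, and the points share the split by subset and organ, so no p is given. Fcgr1 ran closest to Gm5921 and to the scavenger receptor gene Msr1 (Pearson r 0.9991 and 0.9989), and Fcgr4 to Acod1, which encodes the enzyme that makes itaconate, and the uridine phosphorylase gene Upp1 (0.9969 and 0.9925). Fcgr2b had the loosest fit, with Zfp800 and Eme2 (0.9727 and 0.9682). Fcgr3 ran closest to Usp19 and Rc3h2 (0.9982 and 0.9979), and Rc3h2 is the paralogue of the gene Roquin that is mutated in these mice. Syk ran closest to Ash1l and Il10rb (0.9992 and 0.9991), and Tyrobp to Grk2 and Dennd1c (0.9996 and 0.9995). Fcer1g ran closest to a pair of identifiers both named Gm5966 (0.9967 each), and Fcgrt to Akap8 and Wdr91 (0.9919 and 0.9911).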
